A study of Mus musculus with 4 samples.

Results

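Heart tissue of mice given cyclophosphamide (CY) was compared with that of mice given normal saline (NS), by the array labelled CY against the array labelled NS, which are 2 of the 4 arrays of the series. All animals were female C57BL/6J mice, aged 6 weeks per the labels (the methods give a younger age), that received an intraperitoneal injection on each of 2 days. The CY mice received 400 mg/kg at each injection and the NS mice received saline alone, and the hearts were taken 3 hours after the last injection per the series text and the methods, though part of the study's text gives a later time. The other arrays came from mice given acrolein at 5 mg/kg (Acrolein) or N-acetyl cysteine at 200 mg/kg with cyclophosphamide at 400 mg/kg (NAC_CY). Each condition has 1 array of RNA from a section of heart tissue, the number of animals behind an array is not given in the sources used here though GEO's design text mentions 3 repeats of the study, and no difference below has a check between animals, an error or a p-value. RNA came from tissue and not from isolated cardiomyocytes, so fewer cells of a type and less RNA per cell cannot be told apart.

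Cyclophosphamide is an inactive drug that liver cytochrome P450 enzymes oxidise, and its products are a mustard that alkylates and crosslinks DNA and acrolein, a reactive aldehyde that binds thiols. DNA damage stabilises p53, which switches on inhibitors of the cell cycle and genes of cell death. Electrophiles release Nrf2, which switches on genes that make glutathione and remove reactive compounds. High doses of the drug damage heart muscle and the small vessels of the heart.

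Of the 56605 probes on each array, 28757 were well above background on at least 1 of the 2 arrays and were kept, and they measured 19712 of 37008 named genes. The signal of each gene was that of its brightest kept probe after quantile normalization, and the log2 ratio was CY minus NS. The Z-score set that ratio against the mean and SD of the 200 probes nearest in signal. A gene was called higher at a Z-score of at least 2 and a ratio of at least 1.5, and called lower at a Z-score of at most -2 and a ratio of at most 0.66. By these criteria 666 genes were higher, which is 3.38% of the genes measured, and 555 were lower, which is 2.82%. The median log2 ratio over all genes was -0.02, and the quartiles were -0.28 and 0.26. Of the 405 called genes with at least 2 kept probes, 353 had the same sign on every probe and 186 had a second probe called in the same direction. Repeated spots of 1 probe had a median SD of 0.0454 on the log2 scale on both arrays, which measures the printing and hybridisation and not the animals.

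**Figure D1:**
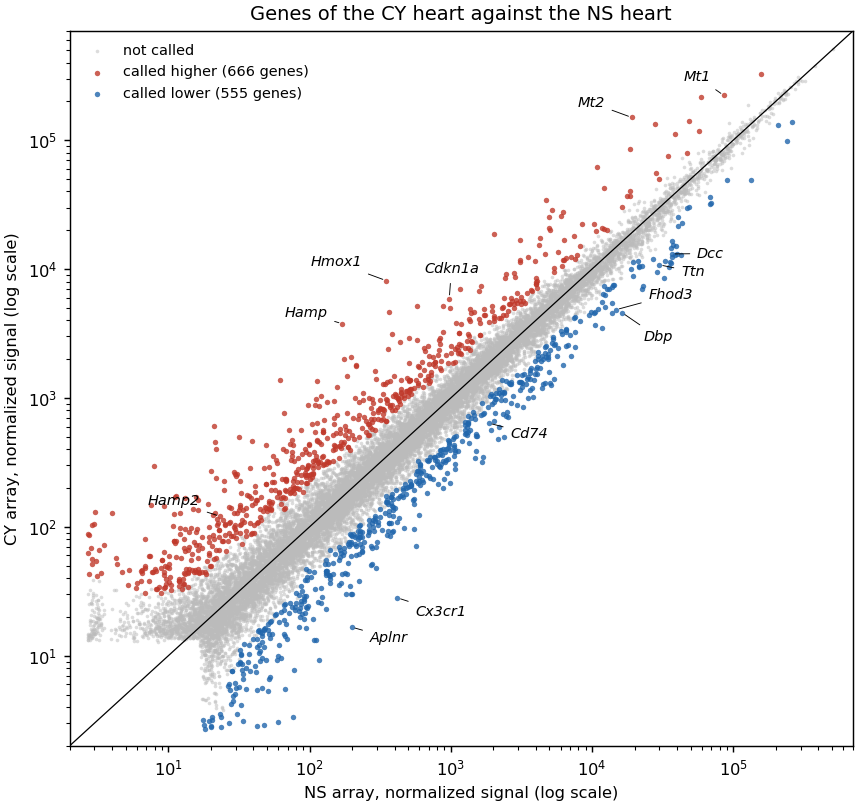
Normalized signal of each measured gene on the NS array (x axis) and on the CY array (y axis), both on log scales, with 1 point for each gene and the line of equal signal. Genes called higher in red number 666 and genes called lower in blue number 555; Mt1 and Mt2 lie among the brightest red points, and Dcc and Ttn among the bright blue ones.

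Genes called lower were longer than the rest. Over protein-coding genes, where length is the distance from the start to the end of the gene in the RefSeq table of the assembly GRCm38.p6, the median length was 80.8 kb for the 458 genes called lower, 15.2 kb for the 567 called higher and 22.0 kb for all 14254. Among the 8533 coding genes of up to 30 kb, 1.88% were called lower and 4.96% higher. Between 100 and 200 kb the share called lower was 6.78%, and between 200 and 300 kb it was 11.1%. Above 300 kb, 101 of 373 genes (27.1%) were called lower and 3 were called higher, against 3.21% lower and 3.98% higher over all coding genes. The median log2 ratio was 0.05 up to 30 kb and -0.63 above 300 kb, where 79.4% of the genes had a ratio below 0, and with normexp background correction it was -0.39 above 300 kb. With the median over a gene's probes in place of its brightest probe, 17.2% of the genes over 300 kb and 1.73% of those up to 30 kb were called lower. Genes over 100 kb were 12.9% of the coding genes measured but 46.9% of those called lower.

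**Figure D2:**
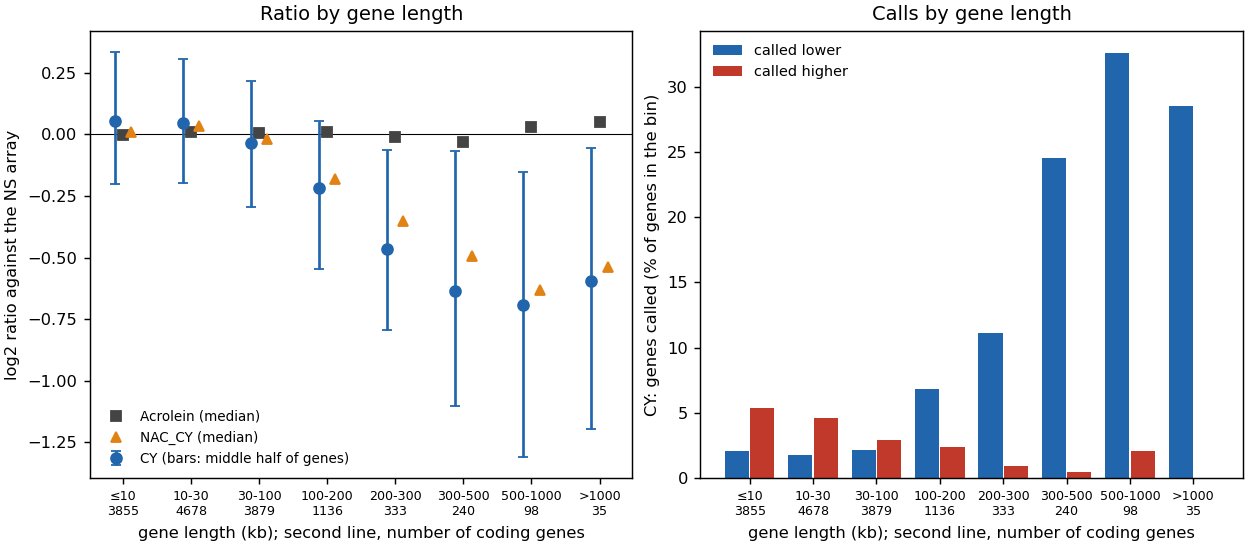
Left, median log2 ratio against the NS array for coding genes in 8 bins of gene length (kb), with bars from the lower to the upper quartile for CY; the number under each bin is its genes. Right, percent of the genes in each bin called lower (blue) or higher (red) on the CY array; the share called lower goes from 2.08% up to 10 kb to 32.7% between 500 and 1000 kb.

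Lower ratios of long genes were seen at each level of signal. With the coding genes split by mean signal into 3 parts of equal size, the share of genes over 300 kb called lower was 17.9% in the dimmest, 34.8% in the middle and 35.5% in the brightest, and that of genes up to 30 kb was 2.75%, 1.17% and 1.68%. The position of a probe in its target, as the files give it, moved with the result, and its part was not tested. Among genes over 300 kb, 11.4% of 35 were called lower where the probe began within the first 1175 bases and 33.3% of 204 where it began beyond base 3375, while the median log2 ratio was -0.44 and -0.80. Genes up to 30 kb had medians of 0.02 and 0.04 in the same 2 groups. On the Acrolein array, which shares the NS array as its control, the median of the genes over 300 kb was 0.00, and on the NAC_CY array it was -0.55. Across the 14254 genes Spearman's rho between length and log2 ratio was -0.20 for CY, 0.02 for Acrolein and -0.16 for NAC_CY, each a description over genes of 1 pair of arrays that share the NS array.

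The long genes that fell included those of a calcium channel, a kinase, an actin organiser, an ankyrin and a receptor. The following were chosen after their values were seen, for a low Z-score and a length above 300 kb. Cacna1c, the pore of the L-type calcium channel, spans 610 kb and went from a signal of 2211 on the NS array to 597 on the CY array (log2 ratio -1.89, Z-score -3.88). Prkg1, a kinase that cyclic GMP activates, spans 1201 kb and went from 201 to 30.1 (-2.74). Fhod3, which organises actin in the sarcomere, spans 425 kb and went from 14753 to 4834 (-1.61). Ank2, the ankyrin that anchors ion transporters, spans 579 kb and went from 3909 to 1387 (-1.49). Dcc, a netrin receptor that had the second highest mean signal of the genes over 300 kb, spans 1098 kb and went from 36674 to 13104 (-1.48).

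Not every long gene was lower. Of the 30 brightest genes over 300 kb, 27 had a ratio below 0 and 9 were called lower. Nav2, at 651 kb, stood at 16570 on the NS array and 16577 on the CY array. Creb5, at 413 kb, stood at 34008 and 32566. The 3 genes over 300 kb called higher were Psd3 (0.95), Slit3 (1.54) and Hydin, which was not well above background on the NS array and was at least 2.08-fold higher.

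Targets of p53 rose. Of 30 measured, 11 were called higher and none lower, and their median log2 ratio was 0.53. Cdkn1a, the p21 inhibitor of cyclin-dependent kinases, went from 976 to 5910 (2.60). Trp53inp1, which promotes p53 activity, went from 362 to 2392 (2.72), and Phlda3, which restrains Akt, from 2477 to 9223 (1.90). Gdf15, a secreted stress cytokine, went from 156 to 1212 (2.95). Several death genes of the list rose, with Bax at 1352 and 3046 (1.17), Bbc3 at 314 and 822 (1.39), and Pmaip1, which was not well above background on the NS array, at least 7.65-fold higher. The death genes Tnfrsf10b (0.85), Perp (-0.23) and Aen (-0.02) were not called. The death receptor Fas stood at 708 and 1344 (0.93) and the receptor Eda2r at 35.2 and 141 (2.00). Mdm2, the ligase that degrades p53, did not pass at 4660 and 7680 (0.72), nor did Ccng1 at 11557 and 8025 (-0.53) or Gadd45a at 440 and 220. All 30 members are shorter than 100 kb.

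Of 27 measured genes for the repair of crosslinks and alkylated bases, 0 were higher and 0 lower, with a median of 0.03. Over all genes 3.38% were called higher and 2.82% lower, so 0 calls in a list of this size is near that share. The lowest was the Fanconi gene Fancc at 86.5 and 47.4 (-0.87), and Mgmt, which removes alkyl groups from guanine, stood at 1323 and 859 (-0.62). Of 15 measured mitosis genes, Kif20a alone was called lower, at 45.7 and 15.1 (-1.59), and the median was -0.47. That count is also near the share over all genes. Of 15 measured Bcl-2 family genes, 4 were higher and 1 lower. The protective Bcl2l1 was among those higher, at 6190 and 11654 (0.91), and the death gene Hrk was lower, at 54.3 and 14.9 (-1.87).

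Targets of Nrf2 rose more widely. Of 30 measured, 15 were called higher and 1 lower, with a median of 0.91. Hmox1, the haem oxygenase that opens haem and frees its iron, went from 349 to 8135, which is 23.3-fold and a Z-score of 7.84. Both subunits of the enzyme that limits glutathione synthesis rose, Gclm from 1397 to 4533 (1.70) and Gclc from 318 to 679 (1.09). Srxn1, which repairs oxidised peroxiredoxins, went from 1371 to 4887 (1.83), Txnrd1, the thioredoxin reductase, from 2023 to 4167 (1.04), and Gsr, the glutathione reductase, from 1166 to 2221 (0.93). Osgin1, an oxidative stress gene, went from 116 to 863 (2.90), and Ephx1, an epoxide hydrolase, from 4290 to 17558 (2.03). Nqo1, a quinone reductase often used to mark Nrf2, did not pass at 1165 and 1922 (0.72, Z-score 1.66). Abcc4, an efflux pump, fell from 356 to 157 (-1.18) and is among the 3 members over 100 kb.

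Of the 7 glutathione transferases in that list 5 rose. Gsta2 went from 185 to 1477 (3.00), Gsta3 from 706 to 1818 (1.36), Gsta4 from 1139 to 2624 (1.20), Gstm1 from 10402 to 22305 (2.14-fold) and Gstm3 from 17617 to 37179 (1.08). Gstm2 (0.49) and Gstp1 (0.42) were not called. Members of each transferase class are similar in sequence, and how much of a probe's signal came from another member was not tested. Of 19 measured enzymes that remove superoxide and peroxides, 2 rose: Gpx3, the secreted glutathione peroxidase, from 6077 to 25752 (2.08), and Cat, catalase, which had a log2 ratio of 0.94. Msra, which repairs oxidised methionine and spans 333 kb, fell (-1.03). Sod2, the mitochondrial superoxide dismutase, stood at 8243 and 4716 (-0.81) and was not called. Of 19 measured aldehyde dehydrogenases, Aldh1a1, which oxidises retinal and products of cyclophosphamide, alone was called, at 1001 and 2239 (1.16). That count is near the share over all genes.

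**Figure D3:**
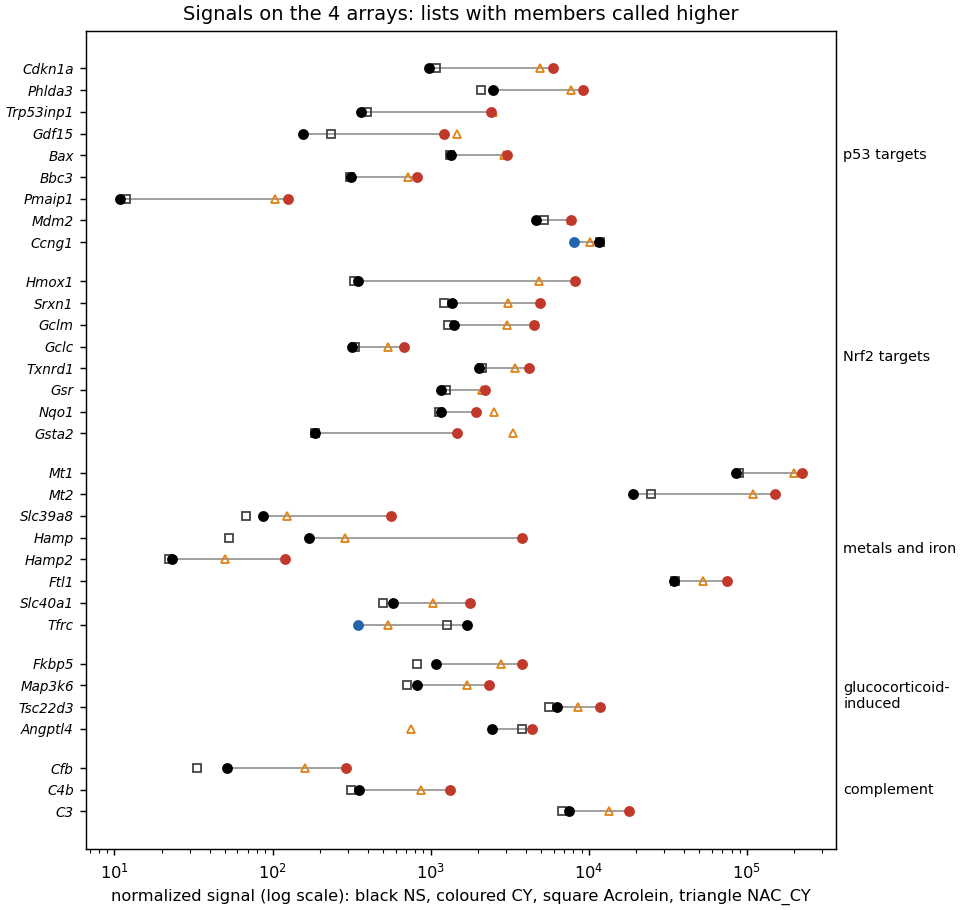
Normalized signal on the 4 arrays (x axis, log scale) of 32 genes from lists with members called higher, with the NS array in black, the CY array in red or, where its signal is below NS, in blue, the Acrolein array as a square and the NAC_CY array as a triangle. Hmox1, Hamp and Mt2 show the long lines, from 349 to 8135, 171 to 3761 and 19145 to 149968, while Ccng1 and Tfrc run the other way.

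Metallothioneins, which bind zinc and copper, rose from high levels. Mt1 went from 85742 to 222433 (2.59-fold) and Mt2 from 19145 to 149968 (7.83-fold). Of 9 measured genes of the metallothionein and zinc list, 4 were called higher and none lower. The other two were zinc importers, Slc39a8 at 87.6 and 562 (2.68) and Slc39a4 at 51.7 and 153 (1.56). Mt3, the brain form, stood at 154 and 253 (0.72) and was not called. A loosened form of the metal response element, by which the factor MTF1 binds metal-regulated promoters, was searched for. Its core, TGCNCNC, takes any base after TGC and so is looser than the element itself, and not every match need be such an element. The 250 bases before the RefSeq start of Mt2 (GRCm38.p6, chr8:94172368-94172617, plus strand) are shown because they hold 5 matches to that core on either strand, in capitals:
Mt2: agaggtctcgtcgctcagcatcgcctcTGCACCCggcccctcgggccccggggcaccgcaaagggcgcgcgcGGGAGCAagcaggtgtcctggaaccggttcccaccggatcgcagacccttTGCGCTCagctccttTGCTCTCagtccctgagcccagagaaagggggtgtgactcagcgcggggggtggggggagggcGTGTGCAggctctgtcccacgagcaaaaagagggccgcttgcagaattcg

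At least 1 match to the core stood in 47.2% of the 27025 genes with such a promoter sequence and 3 or more in 5.35%, so single matches are common. Among the measured genes 55.8% held 1 or more, among genes called higher 53.4% and among genes called lower 59.6%. For 3 or more matches these shares were 7.74%, 6.54% and 10.1%. Mt1, which rose, held 1 match, and the clock gene Dbp, which fell, held 5. These counts cover only the 250 bases before the annotated start, and elements outside that window were not counted. The core of the antioxidant response element that Nrf2 binds, TGACNNNGC on either strand, stood in 11.5% of all promoters and 13.6% of those of measured genes. It stood in 7 of the 24 Nrf2 targets with a promoter sequence and in 13.3% of the genes called higher. A match gives the letters of the window and not the binding of a factor.

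Several genes of iron and haem rose. Of 30 measured, 9 were called higher and 1 lower, with a median of 0.28. Hamp, the peptide hormone hepcidin that closes the iron exporter, went from 171 to 3761, which is 22.0-fold and a Z-score of 8.34. Its paralog Hamp2 went from 23.3 to 121 (5.19-fold). The probes of the pair are shown because the genes are close copies, with the bases that differ within their overlap in capitals (mm9, minus strand, chr7:31727490-31727549 for Hamp and chr7:31707520-31707579 for Hamp2):
Hamp: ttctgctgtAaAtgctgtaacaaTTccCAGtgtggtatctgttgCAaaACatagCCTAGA
Hamp2: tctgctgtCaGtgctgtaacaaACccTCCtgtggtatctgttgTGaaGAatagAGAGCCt

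The probes shared 42 of 59 overlapping bases, so each carries 17 differences from the other, and cross-hybridisation between them was not tested. Beside Hmox1 and the BMP target Id1 (0.69), the iron genes called were those that store, move and bind the metal or haem. Ftl1, the light chain of ferritin, went from 34472 to 75067 (1.12). Slc40a1, the exporter ferroportin, went from 581 to 1764 (1.60), and Tfrc, the transferrin receptor that imports iron, fell from 1686 to 346 (-2.28). Fth1, the ferritin heavy chain, stood at 126272 and 188969 (0.58), which is short of the ratio of 1.5. Lcn2, which binds the iron carriers of bacteria, went from 290 to 1608 (2.47), Hp, which binds free haemoglobin, from 438 to 2696 (2.62), and Slc48a1, which moves haem out of lysosomes, from 927 to 2147 (1.21). Hamp is also on the list of atrial muscle markers, whose summed signal went from 312436 to 830580 with 10 of 12 members called higher, and the part of tissue content in the Hamp result was not tested. Against the same NS array Hamp had a log2 ratio of -1.69 on the Acrolein array and 0.75 on the NAC_CY array.

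Cytochrome P450 genes, whose products oxidise drugs and lipids, rose in 7 of 15 measured members and fell in 1. Cyp2e1 went from 210 to 1006 (2.26), Cyp2b10, of the family that activates cyclophosphamide, from 32.3 to 148 (2.19), and Cyp1b1 from 147 to 513 (3.49-fold). Cyp1a1, a target of the dioxin receptor, was not well above background on the CY array and was at least 2.63-fold lower. Cyp2e1 is also a hepatocyte marker. Of 26 such markers 13 were measured, with a summed signal of 5590 and 14378, and besides Cyp2e1 the plasma proteins Ttr, Ahsg and Trf were called higher and none lower. Measured members below 0 included Serpina1a (-1.01) and Apoc3 (-0.48). The defining hepatocyte gene Alb was not well above background on either array, though it was on the NAC_CY array, and the part of liver RNA was not tested.

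Genes that glucocorticoids induce rose in 9 of 20 measured members, none fell, and the median was 0.80. Fkbp5, a chaperone of the glucocorticoid receptor, went from 1082 to 3796 (1.81), and Map3k6 from 825 to 2346 (1.51). Tsc22d3, the anti-inflammatory protein GILZ, went from 6286 to 11744 (0.90). The related targets Zbtb16, at 5966 and 4573 (-0.38), and Sgk1, at 4016 and 3953 (-0.02), were not called. Of 19 measured clock genes, Dbp, a clock output, fell from 16291 to 4595 (-1.83), Bhlhe41 fell from 47.4 to 15.9 (-1.58) and Arntl, the clock activator BMAL1, rose from 94.5 to 242 (1.36). Nr1d1 at 918 and 806 (-0.19) and Per1 at 3640 and 4988 (0.45) were not called, and the hour of death of the animals is not given in the sources used here. On the Acrolein array Arntl had a log2 ratio of 1.22 against the same NS array, and Dbp one of -0.45.

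Complement genes rose in 8 of 16 measured members and 1 fell, with a median of 0.94. C3, the central component, went from 7502 to 18089 (1.27), C4b from 352 to 1318 (1.91), and Cfb, of the alternative pathway, from 51.3 to 293 (2.52). Masp1, a protease of the lectin pathway, fell from 195 to 86.6 (-1.17). Markers of mesothelium, the lining of the heart's surface, stood beside this with 14 of 17 measured called higher and a summed signal of 7320 on the NS array and 25775 on the CY array, and their part in the complement result was not tested.

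Genes of MHC class II, with which professional antigen-presenting cells show peptides to helper T cells, fell in 5 of 7 measured members, and the median was -1.64. H2-Ab1 went from 4472 to 1291 (-1.79), with all 4 of its probes called lower. H2-Eb1 went from 3615 to 1161 (-1.64), H2-Aa from 301 to 76.8 (-1.97) and the invariant chain Cd74 from 1852 to 638 (-1.54). Ciita, the factor that switches on class II genes, was not well above background on the CY array and was at least 3.59-fold lower. The 2 members that were not called were H2-DMb1 (-1.19) and H2-DMa (-0.80). Genes of MHC class I, which most cells carry, were not called in any of 10 measured members, with a median of 0.11. For a list of this size 0 calls is near the share over all genes.

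Some markers of lymphocytes were lower beside class II. Of the T and NK cell markers 11 of 24 were measured and 5 were lower, with a summed signal of 2877 and 2343; over the alternatives their median ran from -1.53 to -0.26. Of the B cell markers 9 of 13 were measured and 4 were lower, among them Cd79b of the B cell receptor at 91.3 and 29.0 (-1.66), and 0 to 4 were lower over the alternatives. Of the 9, 5 were well above background on 1 array alone, and the median was -0.40. The B cell markers Ms4a1 (0.79) and Fcer2a (1.27) went the other way and were not called. Of 6 measured dendritic cell markers Ccr7 was at least 3.60-fold lower and Cd207 was higher, and of 10 monocyte markers Cx3cr1, the fractalkine receptor, was lower (-3.89). Of 19 tissue macrophage markers 3 were higher and none lower, with a summed signal of 12386 and 13319. The part of these cells in the class II result was not tested. Of 35 interferon-induced genes 28 had a ratio above 0 and 7 below, with a median of 0.33. Of these genes 5 were called higher (14.3%, against 3.38% of all genes) and 2 lower (5.71%, against 2.82%). Over the alternatives the count lower ran from 0 to 3. Isg15 stood at 1117 and 2372 (1.09), and Rsad2 at 379 and 170 (-1.15).

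**Figure D4:**
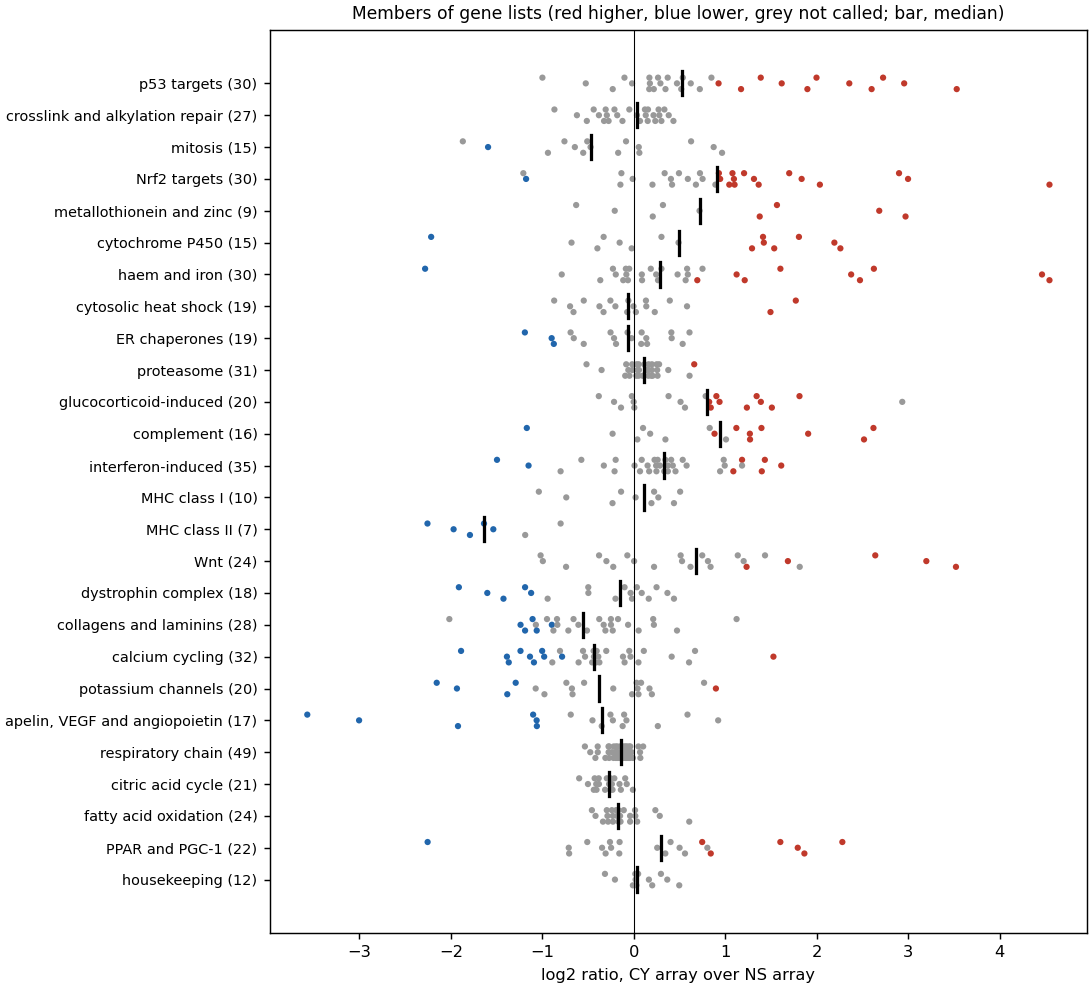
Log2 ratio of CY over NS (x axis) for each measured member of 26 gene lists, with the number of members in brackets; red points were called higher, blue lower and grey neither, and the black bar is the median. The Nrf2 and p53 lists lie to the right with medians of 0.91 and 0.53, MHC class II to the left with -1.64, and the respiratory chain lies in a narrow band about -0.14.

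Genes of the muscle membrane and of ion handling were called lower in several lists. Of 16 sodium and pacemaker channel and connexin genes 0 were lower and 1 was higher, which is near the shares over all genes. Of 18 measured genes of the dystrophin complex, which links the fibre's actin to the matrix, 5 were lower and none higher. Among these were Dmd, dystrophin itself, at 586 and 218 (-1.43), its homologue Utrn at 2019 and 927 (-1.12), the sarcoglycan Sgcd at 1346 and 443 (-1.60), and the laminin chain Lama2 at 3055 and 1339 (-1.19). All 5 are among the 8 members longer than 100 kb, whose median was -1.16. Of the 10 shorter members none was called, with a median of 0.01, and the sarcoglycans Sgca (-0.10) and Sgcb (-0.02) were near 0.

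Calcium cycling genes fell in 9 of 32 members and 1 rose, with a median of -0.44. The release channel Ryr2 went from 6577 to 2513 (-1.39), the sodium-calcium exchanger Slc8a1 from 278 to 108 (-1.37), and Casq2, which stores calcium in the reticulum, from 67980 to 31873 (-1.09). The 12 members over 100 kb held 5 of those called lower and had a median of -0.71, against 4 of 20 and -0.34 in the shorter ones. Sln, sarcolipin, rose from 48818 to 140532 (1.53) and is also an atrial marker. Of 20 potassium channel genes Kcnj5, also an atrial marker, was higher (0.90) and 4 were lower: Kcne1, at 2148 and 482 (-2.16), Kcnd2, at 893 and 234 (-1.93), Abcc9, at 3178 and 1217 (-1.38), and Kcnq1, at 3181 and 1299 (-1.29). The last 3 are among the 5 members of that list over 100 kb.

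The sarcomere lists were also lower in part. Of 17 measured thin filament genes 3 were lower and none higher, with a median of -0.50, of 18 thick filament genes 2 were lower and 3 higher (-0.14), and of 20 Z-disc genes 4 were lower and 2 higher (-0.25). Myl4 (1.87) and Myl7 (1.52), among the thick filament genes called higher, are also atrial markers, and the part of atrial tissue was not tested. Fhl2, a Z-disc adaptor, went from 134344 to 49133 (-1.45). Of the 16 cardiomyocyte markers 4 were lower and none higher, with a median of -0.37 and a summed signal of 2728803 and 2303321. The 2 markers over 100 kb were both lower, with a median of -1.43, against 2 of 14 and -0.22 in the shorter ones. Among thin filament genes the median was -1.08 in the 2 over 100 kb and -0.30 in the 15 shorter ones. Actc1, cardiac actin, went from 240573 to 97740 (-1.30) and Ttn, titin, had a log2 ratio of -1.47, while Tnnt2 (0.01) and Myh6 (-0.12) were not called. Of 49 measured genes of the respiratory chain none was called, with a median of -0.14 and a range from -0.54 to 0.10. None was called of 21 citric acid cycle genes (-0.27) or of 24 fatty acid oxidation genes (-0.17), which for lists of this size is near the share over all genes. The ratios were small but mostly below 0, in 45 of the 49 respiratory chain genes and all 21 citric acid cycle genes. They were below 0 in 18 of the 24 fatty acid oxidation genes, and in 51.0% of all coding genes. Of 22 genes of the PPAR and PGC-1 list 6 rose, including the uncoupling proteins Ucp2 from 578 to 2807 (2.28) and Ucp3 from 820 to 2838 (1.79). The coactivator Ppargc1b fell from 2388 to 500 (-2.26) and is among the 4 members of that list over 100 kb. Of 29 glycolysis and glycogen genes 4 fell and 1 rose, and Hk2, a hexokinase, went from 4065 to 1521 (-1.42).

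**Figure D5:**
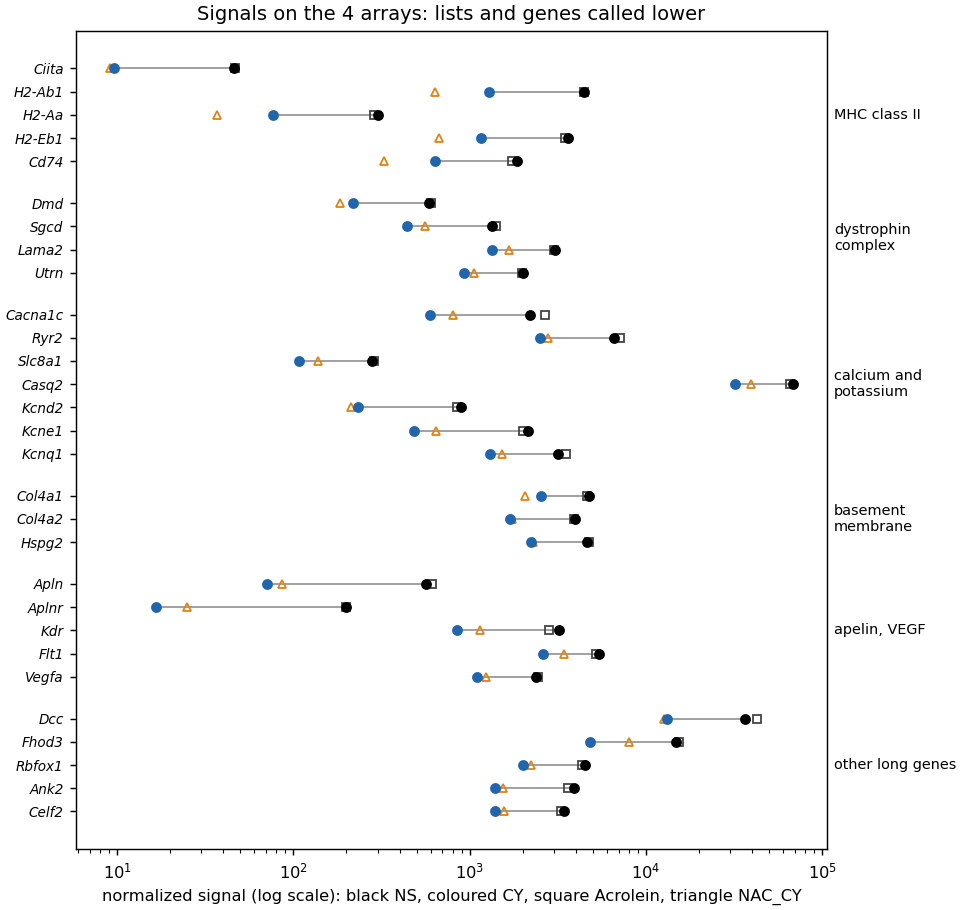
Normalized signal on the 4 arrays (x axis, log scale) of 29 genes called lower on the CY array, with NS in black, CY in blue, Acrolein as a square and NAC_CY as a triangle. The triangles of H2-Ab1, Cd74 and Col4a1 lie left of CY and those of Kdr and Fhod3 right of it, and the squares lie near NS.

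Some genes of vessel growth signals, mural cells and the basement membrane were called lower. Of 17 measured genes of apelin, VEGF and angiopoietin signalling, 6 were lower and none higher. The ligand Apln went from 569 to 70.9 (8.02-fold lower) and its receptor Aplnr from 198 to 16.7 (-3.57). Vegfa went from 2375 to 1107 (-1.10) with all 4 of its probes called lower, and its receptors Kdr from 3229 to 851 (-1.92) and Flt1 from 5431 to 2599 (-1.06). Of 27 endothelial markers 2 were lower, which were Kdr and Flt1, with a summed signal of 97358 and 81986. The marker Vwf stood at 3669 and 6207 (0.76) and Cdh5 at 1964 and 1279 (-0.62), neither of them called. Of 14 measured markers of mural cells 3 were lower, among them the smooth muscle actin Acta2 (-1.64), and 2 were higher, Tagln (1.14) and Cnn1 (3.11).

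Of 28 measured collagen, laminin and basement membrane genes 5 were lower and none higher, with a median of -0.56. Col4a1 and Col4a2, the main collagen pair of basement membranes, went from 4747 to 2549 (-0.90) and from 3983 to 1687 (-1.24), and Hspg2, perlecan, from 4626 to 2215 (-1.06). All 5 are among the 17 members over 100 kb, which had a median of -0.88 against -0.25 in the 11 shorter ones. The fibrillar collagens Col1a1 (-0.23) and Col3a1 (-0.25) were not called. Genes of matrix remodelling rose in 5 of 23 members, with Mmp3, a matrix protease, at 97.3 and 889 (3.19) and its inhibitor Timp1 at 655 and 2317 (1.82), while Timp4 fell from 2070 to 762 (-1.44).

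Secreted signals rose in several families. Of 24 Wnt genes 5 were higher and none lower, among them the inhibitors Sfrp5 at 176 and 2020 (3.52), Dkk3 at 2039 and 18694 (3.20) and Wif1 at 75.2 and 468 (2.64). Sfrp5 is also a mesothelial and Dkk3 an atrial marker, and the part of those tissues was not tested. Of 23 insulin, IGF and Akt genes 5 rose and 1 fell. Those that rose were Igf2, at 627 and 1909 (1.61), and 4 binding proteins of IGF, of which Igfbp3 stood at 1173 and 3764 (1.68) and Igfbp5 at 1724 and 4862 (2.82-fold). Pik3ca, a catalytic subunit of PI3K, fell from 3778 to 1194 (-1.66). Of 27 BMP and TGF-beta genes 4 rose and Ltbp1, which spans 387 kb, fell. Among those that rose was Bmp10, an atrial ligand that was not well above background on the NS array, at least 6.29-fold higher.

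Some chaperone genes were called, while calls in the proteasome and housekeeping lists were near the share over all genes. Of 19 endoplasmic reticulum chaperones 3 fell (15.8%, against 2.82% of all genes) and none rose. Hsp90b1 stood at 21200 and 11555 (-0.88) and Pdia6 at 13108 and 7028 (-0.90). Over the alternatives the count lower ran from 0 to 5. Of 19 cytosolic heat shock genes the inducible pair Hspa1a, at 178 and 606 (1.77), and Hspa1b, at 53.5 and 151 (1.49), rose, and their probes may share signal since the genes are nearly identical. The pair was 10.5% of that list, against 3.38% of all genes called higher. Of 31 proteasome genes Psmd4 alone was called, at 12798 and 20215 (0.66), which is 3.23% of that list against 3.38% of all genes called higher. None of 12 housekeeping genes was called, and Actb stood at 33402 and 33758 (0.02), Gapdh at 218875 and 225994 (0.05) and Tbp at 188 and 187 (-0.01).

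Some genes were well above background on 1 array alone. Of the kept probes 2080 were so on the CY array only, of which 173 were called higher, and 673 on the NS array only, of which 124 were called lower. Among genes gained, Cd207, a lectin of Langerhans cells, had the largest bound at 17.9-fold or more. Slurp1 was at least 10.6-fold higher and Acox2, a peroxisomal oxidase of bile acid synthesis, at least 10.2-fold. Has1, which makes hyaluronan, was at least 8.78-fold higher. Among genes lost, Nckap5, which spans 917 kb, was at least 9.08-fold lower, Galnt17, which spans 433 kb, at least 8.08-fold, and Lrat, which esterifies retinol, at least 5.26-fold. Platelet markers were called higher in 10 of 14 measured members, with a summed signal of 3215 and 8568. Of the 14, 5 were well above background on 1 array alone, and over the alternatives the count higher went down to 7 and the median from 2.62 to 0.98. Each bound set the brighter array's signal against the lowest signal well above background on the other array, 16.5 on NS and 12.8 on CY, or against the probe's own signal where that was higher.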

How the data were processed

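Total RNA of heart tissue from 4 conditions was labelled with a low input kit and hybridised to SurePrint G3 Mouse 8x60K v2 arrays of 1 colour. The deposited scanner files hold the processed signal, an intensity per spot from which Agilent Feature Extraction had subtracted background. The version is 10.7.1.1 per the file headers and 9.5.1.1 per the submitters' processing notes. The deposited value table holds intensity values that the authors quantile normalized (median 13.9); it was an alternative, and it had 0 columns of other samples. From the scanner files, log2 signals of 59305 non-control spots were quantile normalized over the 4 arrays, outlier spots were left out (66 on NS and 80 on CY; none was saturated), and spots of 1 probe were averaged. A probe was well above background where at least 0.5 of its spots carried that flag, 47.1% of probes on NS and 49.6% on CY; the number of arrays limits the precision.

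The authors' methods gave the Z-score and ratio criteria, and the window of 200 probes was set here, as the window is not given in the sources used here. Genes were named by RefSeq accession (32994 probes), symbol or synonym, and otherwise by the file's name (12867 probes). Sequences came from RefSeq and the array files. The genes named were the 20 highest and 20 lowest Z-scores, the first 3 and the 6 largest ratios of each of 81 lists, the largest bounds and controls; the long genes were chosen after their values were seen, as were some uncalled members. The lists and members were chosen with earlier results of these data known. With 1 array a side no test was possible. Functions were tested on simulated data. Python 3.11.15, numpy 2.4.6, pandas 2.3.3, scipy 1.17.1, R 4.3.3 and limma 3.58.1 were used. Some genes are not reported here.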

Additional observations from a re-analysis of the deposited data

How the results depend on the processing

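The counts of 666 genes higher and 555 lower stayed within 1.5 times under the other normalizations, filters, windows, probe rules, a ratio of 2 and the deposited value table, at 574 to 779 and 459 to 622. With the Z-score set at 3, 283 genes were called higher and 150 lower. With no Z-score the ratio gave 2312 and 2112. Of the higher genes at least 81.1% and of the lower genes at least 76.8% were called under each alternative that kept the criteria, the lowest of these being the filter on both arrays and normexp (an offset of 50). Of the coding genes over 300 kb 27.1% were called lower, 26.3% to 28.5% under the alternative normalizations, filter and table, and 17.2% with the median over a gene's probes; these alternatives were chosen after seeing the data, and the cause was not tested. Among named genes that were called, Pdlim7 alone changed sign, from 0.88 to -0.21 with the median over its probes. Of these 264 genes 110 lost the call at a Z-score of 3, 28 with normexp and 26 with the median over probes. Under the filter on both arrays 224 of them were still measured. Over all 13 alternatives, members called lower ran from 0 to 14 for collagens and laminins and from 2 to 6 for the dystrophin complex, and members called higher from 2 to 11 for glucocorticoid-induced genes, 6 to 14 for p53 targets and 8 to 20 for Nrf2 targets. No paired analysis was possible because the labels carry no replicate numbers and each group has 1 array. Signal limits the dim genes: the median SD of the windows was 0.76 among the dimmest and 0.41 among the brightest of 5 equal parts of the genes.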
